A study of Rattus norvegicus with 15 samples.

Results

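Neuropeptide Y (Npy) is among the 21 features that the authors' deposited table lists as lower in aortas of nephrectomized rats than in those of sham rats. Npy and the sympathetic nerve genes listed with it are described here. The genes were chosen by name: Npy, Th, Dbh, Npy1r, Prph and Uchl1, wherever the deposited value table has a row for them. A row was found for 5 of these genes, out of 15739 features in the table, and Dbh was not analysed here. Npy itself was chosen because its level was lower in nephrectomized rats than in sham rats, so its levels against sham are given as a description, with no test. The question addressed was whether other genes of sympathetic nerves shared that difference.

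The 15 arrays measured aortic RNA of Sprague Dawley rats in 5 groups of 3 arrays, each array carrying a pool of RNA from 2 rats of one group. Sham rats were age-matched and untreated. The other 4 groups had undergone 5/6 nephrectomy (NX), a surgical model of uremia in which most kidney tissue is removed, and were injected intraperitoneally 3 times a week for 12 days. They received either vehicle or 1 of 3 agents that act on the vitamin D receptor. The doses were 0.08 µg/kg for paricalcitol, 0.04 µg/kg for alfacalcidol and 0.01 µg/kg for VS-105. Sham rats thus differed from NX-vehicle rats in both surgery and injection, and the 3 compounds were given at different doses. The age of the rats is not stated in the labels.

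Neuropeptide Y is a short peptide that sympathetic neurons store in vesicles together with noradrenaline and release onto vessels, where it constricts smooth muscle through the Y1 receptor encoded by Npy1r. Tyrosine hydroxylase (Th) catalyses the first step of noradrenaline synthesis, peripherin (Prph) is an intermediate filament of peripheral neurons, and Uchl1 encodes the neuronal ubiquitin hydrolase also known as PGP9.5. The cell bodies of sympathetic neurons lie in ganglia outside the vessel wall, and the aorta itself receives their axons. In rats, megakaryocytes and platelets are also known to hold neuropeptide Y. In a bulk sample, fewer cells of a type and less RNA per cell cannot be told apart.

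Npy lies on chromosome 4 of the rat, at chr4:80212111-80219310 in the RefSeq annotation of the GRCr8 build. The 250 bases before its annotated start are shown with those of Gp9 and Treml1, a pair of platelet genes whose levels moved with Npy (described further on). Sequences are from RefSeq, GRCr8, 5′ to 3′ on the strand of the gene, and capitals mark matches to the searched motifs. The windows are chr4:80211861-80212110 (plus strand) for Npy, chr4:121792592-121792841 (plus strand) for Gp9 and chr9:20139934-20140183 (minus strand) for Treml1.
Npy: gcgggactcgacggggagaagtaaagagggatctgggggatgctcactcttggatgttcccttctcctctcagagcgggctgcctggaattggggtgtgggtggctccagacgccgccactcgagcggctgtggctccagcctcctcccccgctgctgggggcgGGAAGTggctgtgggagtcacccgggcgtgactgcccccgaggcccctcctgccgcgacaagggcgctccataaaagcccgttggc
Gp9: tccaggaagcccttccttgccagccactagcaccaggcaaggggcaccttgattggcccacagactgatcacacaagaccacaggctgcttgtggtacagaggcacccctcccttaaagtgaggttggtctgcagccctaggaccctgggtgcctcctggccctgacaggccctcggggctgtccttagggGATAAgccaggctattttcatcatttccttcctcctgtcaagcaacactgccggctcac
Treml1: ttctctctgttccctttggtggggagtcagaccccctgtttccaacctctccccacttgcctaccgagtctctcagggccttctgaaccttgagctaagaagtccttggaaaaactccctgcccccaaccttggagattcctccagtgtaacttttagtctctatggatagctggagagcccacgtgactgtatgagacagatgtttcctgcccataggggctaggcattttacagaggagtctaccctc
The motifs searched on both strands were GATAA (the core bound by GATA factors), GGAAGT (a core of ETS factors) and TGACG (the CREB and ATF sites). Npy held 1 GGAAGT, Gp9 held 1 GATAA and Treml1 held none of them. Windows of the same length before the 33469 starts in the RefSeq table held GATAA in 23.5%, GGAAGT in 19.2% and TGACG in 18.2%, so single matches of this kind are common.

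Values are log2 signals as deposited, with array medians from 2.33 to 2.64. Array minima ranged from -5.88 to -2.71, so values under -2.71 are not comparable between all arrays. The tissue label was checked against marker lists: the mean level of 10 contractile smooth muscle genes was 6.46 to 7.56 over the 15 arrays, and that of 10 endothelial genes was 2.74 to 3.49. Some arrays carried transcripts of other tissues. In the vehicle group, 10 intestinal epithelial genes averaged -0.05 (array 2) and 3.13 (array 3), and elsewhere their mean stayed between -4.75 and -1.70. In the VS-105 group, 13 skeletal muscle genes averaged 3.97 on array 1, while their mean lay between -0.28 and 0.98 on all other arrays. Calls over all NX groups against sham are given with and without these 3 arrays. Some results by group, and the correlations with Npy, are given only with them.

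Npy was lower on all 12 NX arrays than on any sham array. On the sham arrays its log2 signal was 6.58, 7.02 and 6.54 (mean 6.71 ± 0.27, SD, n = 3). On the NX-vehicle arrays it was 5.20, 3.79 and 5.27 (4.76 ± 0.84, n = 3), and on the NX-paricalcitol arrays 4.90, 3.33 and 4.77 (4.33 ± 0.87, n = 3). In both of these groups array 2 stood more than 1 log2 unit below the other 2 arrays. On the NX-alfacalcidol arrays Npy was at 3.63, 3.18 and 3.15 (3.32 ± 0.27, n = 3), and on the NX-VS-105 arrays at 3.96, 3.33 and 4.16 (3.82 ± 0.43, n = 3). All 3 alfacalcidol arrays lay below all 3 vehicle arrays, as for 5.66% of all features, whereas the paricalcitol and VS-105 arrays overlapped with those of vehicle. The order of the group means was sham, vehicle, paricalcitol, VS-105 and alfacalcidol, and the ranges of neighbouring NX groups overlapped.

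The difference of Npy from sham was -1.96 in NX-vehicle, -2.38 in NX-paricalcitol, -2.89 in NX-VS-105 and -3.39 in NX-alfacalcidol, each with a standard error (SE) of 0.44 in the fit. Over the 4 NX groups together it was -2.66 (SE 0.35), and -2.56 without the 3 arrays with intestinal or muscle transcripts. Without them, NX-vehicle kept only array 1 and differed by -1.51, a change that comes from the loss of array 2 with its low Npy. As linear folds, the authors' deposited table lists Npy as 3.88-fold lower in NX-vehicle, 5.21-fold lower in NX-paricalcitol, 7.44-fold lower in NX-VS-105 and 10.5-fold lower in NX-alfacalcidol. These 4 comparisons share the same sham arrays.

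**Figure D1:**
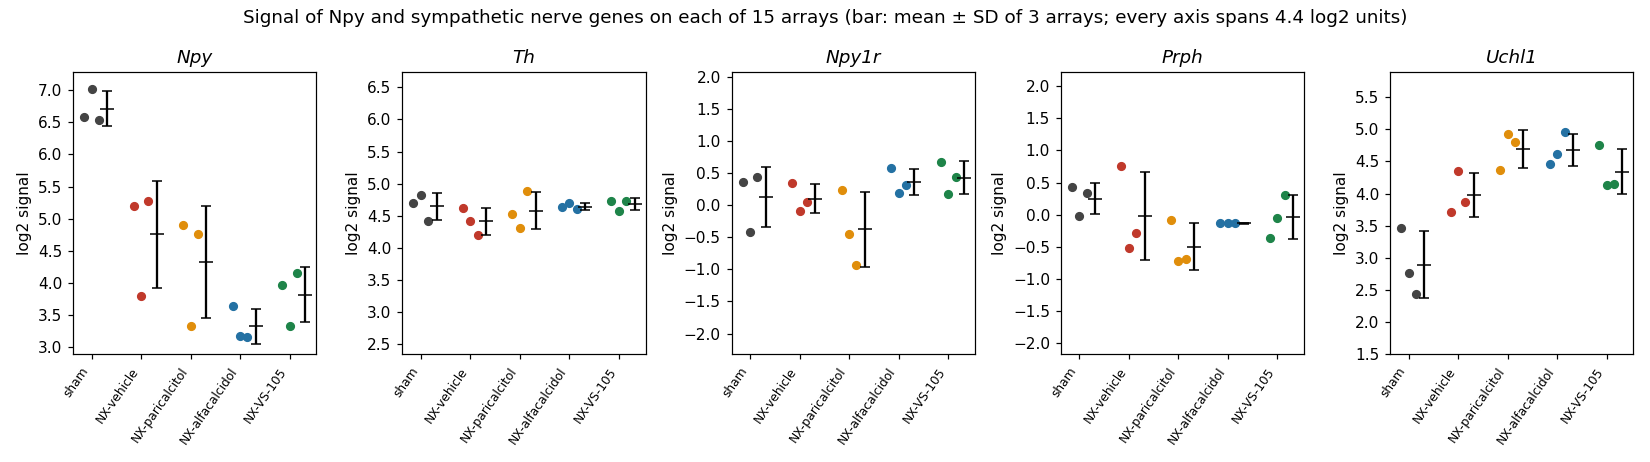
Log2 signal (y axis) of Npy, Th, Npy1r, Prph and Uchl1 on each array, by group (x axis). Each point is 1 array, and bars are the mean ± SD of 3 arrays; every panel spans the same number of log2 units. Npy lies at 6.54 to 7.02 in sham and at 3.15 to 5.27 in NX groups, Uchl1 lies higher on all 12 NX arrays than in sham, and the sham and NX arrays overlap for Th, Npy1r and Prph.

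Whether a compound moved Npy beyond vehicle is a comparison that did not choose the gene, and it was tested. Npy differed from NX-vehicle by -0.42 with paricalcitol (95% confidence interval -1.38 to 0.54, limma adjusted p = 0.644), by -0.94 with VS-105 (-1.90 to 0.02, adjusted p = 0.230) and by -1.43 with alfacalcidol (-2.39 to -0.47, adjusted p = 0.195). None passed the threshold of an adjusted p under 0.05 once adjusted over all features, although the interval for alfacalcidol, which is not adjusted, lay below 0. Over all features, the share that passed was 0% for paricalcitol, 4.55% for VS-105 and 0.0445% for alfacalcidol. With arrays weighted by their quality all 3 differences passed (limma adjusted p = 0.0301 for paricalcitol, 0.00639 for VS-105 and 0.000127 for alfacalcidol). The shares above are from the fit without weights, and those with weights are not given here. Array weights also raised the counts of nerve genes called in these comparisons (described further on), so passing with weights was not particular to Npy. Without NX-paricalcitol array 2 the paricalcitol difference turned to 0.08. Arrays with the same number in the vehicle and paricalcitol groups deviated together over all features, the only 1 of 10 pairs of groups to do so on all numbers. The labels do not say what a number marks, so this pairing was chosen after seeing the data. Paired by number, Npy was lower with paricalcitol in 3 of 3 pairs, by differences of -0.30, -0.47 and -0.51, and the fit of these 2 groups with the number as a block gave -0.42 (SE 0.09, limma adjusted p = 0.0908), which did not pass. The doses differed, so the compounds were not compared with each other.

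Of the other 4 genes chosen by name, none was lower in NX rats by the test, and Uchl1 was higher. Over all 15739 features, 9.81% passed in the comparison of all NX groups with sham, 6.72% higher and 3.09% lower. Th was at 4.70, 4.82 and 4.42 on the sham arrays (4.65 ± 0.21, n = 3) and between 4.19 and 4.89 on the NX arrays, with a median of 4.61. The ranges overlapped over most of their length, and the difference was -0.07 (SE 0.13, 95% interval -0.35 to 0.21, limma adjusted p = 0.754). The sign of the Th difference turned to 0.02 without sham array 2.

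Npy1r, the Y1 receptor on the responding smooth muscle, was at 0.36, -0.41 and 0.44 on the sham arrays and between -0.92 and 0.68 on the NX arrays. The groups overlapped, and the difference over all NX groups was 0.00 (SE 0.23, interval -0.49 to 0.49). Prph was at 0.43, -0.02 and 0.34 on the sham arrays and between -0.72 and 0.76 on the NX arrays. Prph lay below the lowest sham array on 10 of 12 NX arrays, and the difference of -0.42 (SE 0.24, interval -0.93 to 0.09) did not pass (limma adjusted p = 0.247). It passed with array weights, at -0.60 (adjusted p = 0.0375).

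Uchl1 went the opposite way to Npy. Its log2 signal was 3.46, 2.77 and 2.44 on the sham arrays (2.89 ± 0.52, n = 3), 3.71, 4.36 and 3.86 on NX-vehicle arrays and 4.37, 4.93 and 4.80 on NX-paricalcitol arrays. It was 4.46, 4.62 and 4.95 with alfacalcidol and 4.75, 4.13 and 4.15 with VS-105. All 12 NX arrays lay above all 3 sham arrays, as for 2.07% of all features. The difference over all NX groups was 1.54 (SE 0.22, limma adjusted p = 0.00674), and 1.42 without the 3 arrays with intestinal or muscle transcripts (adjusted p = 0.0293). It did not pass without sham array 2 (adjusted p = 0.0599). By group it was 1.81 with paricalcitol (adjusted p = 0.0148), 1.79 with alfacalcidol (0.0127) and 1.45 with VS-105 (0.00937), and 1.09 in NX-vehicle, which did not pass (0.409). In an exact two-sided permutation test over the 455 ways to draw 3 of 15 arrays, p was 0.0022 for Uchl1, the smallest this design allows, 0.114 for Prph, 0.582 for Th and 1 for Npy1r. Adjusted over these 4 tests, the exact p of Uchl1 was 0.00879. The authors' deposited table of 89 selected features holds Npy and Uchl1 among the nerve genes, so the direction of Uchl1 was known when it was listed here. Its tests against sham, the exact test included, use the values that had selected it and are no separate support.

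Beyond the genes chosen by name, 8 lists, that of the rule included, cover the peptide family, noradrenaline handling, secretory granules, sympathetic transcription factors, axons, neurotrophic factors and adrenergic receptors. They hold 51 measured genes besides Npy. In all NX groups against sham, 5 of the 51 rose, 4 fell and 42 did not pass the test. The median difference was 0.00, against 0.06 over all features, with 26 differences above 0 and 25 below. The mean level of the 51 genes was 1.70 to 1.73 on the sham arrays and 1.54 to 1.84 on the NX arrays. Over all features 6.72% rose and 3.09% fell, and the counts of single lists below stand beside these same shares. The share called, 9 of 51, stands beside 9.81% of all features. It was sensitive to single arrays: 4 genes were called without sham array 1 and 0 without sham array 2, and 2 (Uchl1 and Bdnf) without the 3 arrays with intestinal or muscle transcripts.

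In the peptide family, 2 of 7 measured genes besides Npy rose and none fell. Cpe, the carboxypeptidase that trims peptide precursors, was at 6.59, 5.81 and 6.36 on sham arrays and at 5.86 to 8.32 on NX arrays, a difference of 1.38 (SE 0.32, limma adjusted p = 0.0267). The lowest NX value was NX-vehicle array 1, and the other 11 lay above all sham arrays. Npy4r, the receptor for pancreatic polypeptide, rose by 0.64 (SE 0.18, adjusted p = 0.0408), with 8 of 12 NX arrays above all sham arrays. Among genes closer to Npy, the related peptides Pyy (-0.36, adjusted p = 0.151) and Ppy (-0.33, 0.197), the precursor convertase Pcsk1 (-0.55, 0.237) and the amidating enzyme Pam (0.16, 0.598) did not pass. Neither call of this list held without sham array 1, without sham array 2 or without the 3 arrays with foreign transcripts.

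In noradrenaline handling, 1 of 9 measured genes fell and none rose. It was Slc6a2, the noradrenaline transporter of sympathetic axons, at 1.88, 1.41 and 1.27 on the sham arrays. On the NX arrays it ranged from -0.51 to 1.23, and all 12 lay below the lowest sham array, as for 0.851% of all features. The difference was -1.06 (SE 0.31), with a limma adjusted p of 0.04997, just under the threshold. The call was lost in 13 alternatives, among them the omission of each sham array and the omission of the 3 arrays with foreign transcripts (-0.78, adjusted p = 0.0727). The vesicular monoamine transporter Slc18a2 (0.17, adjusted p = 0.667), the decarboxylase Ddc (-0.58, 0.383), the adrenaline-forming enzyme Pnmt (0.07, 0.663) and the breakdown enzyme Maoa (0.22, 0.345) did not pass.

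Of 3 measured secretory granule genes, none passed. Cadps, which primes dense-core vesicles for release, differed by 1.29 (SE 0.40, limma adjusted p = 0.0571), and the complexin Cplx2 by -0.42 (0.210). Neither of 2 measured sympathetic transcription factors passed over all NX groups, with Gata2 at -0.46 (adjusted p = 0.183). Both differences were below 0, and the mean level of the 2 genes was 2.01 to 2.13 on the sham arrays and 1.11 to 1.92 on the NX arrays. In NX-VS-105 against sham 1 of the 2 was called lower, where 8.01% of all features fell.

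Of 13 measured axonal and pan-neuronal genes, 2 rose (Uchl1 and Thy1) and none fell. Thy1, a surface glycoprotein of neurons that T cells and fibroblasts also carry, was at -1.97, -2.18 and -2.24 on the sham arrays and at -1.72 to -0.10 on the NX arrays. All 12 NX arrays lay above the sham arrays, as for 2.07% of all features, and the difference was 1.36 (SE 0.30, limma adjusted p = 0.0242). The call was lost without sham array 1, without sham array 2 and without the 3 arrays with foreign transcripts. Sncg, a synuclein of peripheral neurons and fat cells, was at 4.28, 4.50 and 4.64 in sham and at 1.81 to 4.58 in NX rats, with 11 of 12 NX arrays below the lowest sham array. Its difference of -1.02 (SE 0.40, adjusted p = 0.105) did not pass. Stmn2, a tubulin-binding protein of growing axons, ranged from -2.73 to 1.33 within sham alone, and 6 of its 15 values lay under the common floor of -2.71, so its difference of -1.45 (SE 0.87, adjusted p = 0.279) says little. Sncg and Stmn2 were named after their values were seen. The vesicle protein Rab3a (1.01, adjusted p = 0.0549), the microtubule proteins Map1b (-0.22, 0.437) and Mapt (0.04, 0.970) and the synaptic proteins Vamp2 (0.13, 0.473) and Stx1a (0.18, 0.470) did not pass.

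Of 11 measured neurotrophic genes, 1 rose and 3 fell. Bdnf, brain-derived neurotrophic factor, was at -2.88, -4.25 and -4.31 on the sham arrays and at -3.12 to -0.37 on the NX arrays, a difference of 2.41 (SE 0.44, limma adjusted p = 0.0141). Since 4 of its 15 values lay under the common floor, the size is uncertain, and with values raised to that floor it was 1.35. Gdnf, which supports sympathetic and other neurons, fell by 0.97 (SE 0.25, adjusted p = 0.0349) and Artn, a GDNF relative that guides sympathetic axons along vessels, fell by 0.57 (SE 0.12, 0.0220). Ntrk2, the receptor for Bdnf, fell by 0.82 (SE 0.17, 0.0218). For Gdnf and Artn 11 of 12 NX arrays, and for Ntrk2 9 of 12, lay below the lowest sham array. Ngfr, a receptor shared by the neurotrophins, was at 0.05 (adjusted p = 0.945) and did not pass. Without sham array 2 none of these 4 calls held, and without sham array 1 those of Bdnf and Ntrk2 did.

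None of 6 measured adrenergic receptors passed. The nearest was Adra1b, an alpha-1 receptor that contracts smooth muscle, at -0.78 (SE 0.23, limma adjusted p = 0.0523), which fell in the comparison of NX-paricalcitol with sham (-1.14, adjusted p = 0.0435), a call lost without any one of the sham arrays. None of 3 measured sensory, cholinergic and enteric nerve genes passed, with Chat at -0.56 (adjusted p = 0.294) and Gal at 0.42 (0.351). None of 10 measured Schwann cell genes passed, with a median difference of -0.20, among them Ncam1 at -0.45 (adjusted p = 0.180) and Egfl8 at -0.24 (0.176).

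By group, 0 of the 51 nerve genes were called in NX-vehicle against sham, where 0% of all features passed (1423 features had an unadjusted p under 0.05). In NX-paricalcitol against sham 5 rose and 2 fell, where 6.98% of all features passed, 5.51% higher and 1.47% lower. In NX-alfacalcidol 3 rose and 2 fell, where 1.75% of all features passed, 1.17% higher and 0.578% lower. In NX-VS-105 5 rose and 4 fell, where 15.9% of all features passed, 7.88% higher and 8.01% lower. Uchl1, Cpe and Bdnf were among the genes that rose in each of the 3 compound groups, and Ntrk2 was among those that fell. These comparisons share the sham arrays. Leaving out single arrays moved the count between 0 and 10 for paricalcitol, 0 and 7 for alfacalcidol and 3 and 11 for VS-105.

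Against NX-vehicle, 0 of the 51 nerve genes were called with paricalcitol (0% of all features, 2325 with an unadjusted p under 0.05) and 0 with alfacalcidol (0.0445%). With VS-105 Ntrk2 was called (4.55% of all features, 2.15% lower). Its log2 signal was 0.24, 0.49 and 0.34 with vehicle and -0.89, -0.15 and -0.41 with VS-105, a difference of -0.84 (SE 0.22, limma adjusted p = 0.0463). The arrays did not overlap, as for 11.2% of all features in that direction. The call rested on single arrays: it was lost without NX-vehicle array 2 (adjusted p = 0.106), NX-vehicle array 3 (0.152), NX-VS-105 array 1 (0.122) or NX-VS-105 array 3 (0.119). It was also lost without the 3 arrays with foreign transcripts (-0.52, adjusted p = 0.406), where the 1 vehicle array left is assumed to vary like the other groups. Uchl1 differed from NX-vehicle by 0.72 with paricalcitol (adjusted p = 0.295), 0.70 with alfacalcidol (0.244) and 0.36 with VS-105 (0.468), and Th by 0.17 (0.618), 0.23 (0.404) and 0.27 (0.345).

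**Figure D2:**
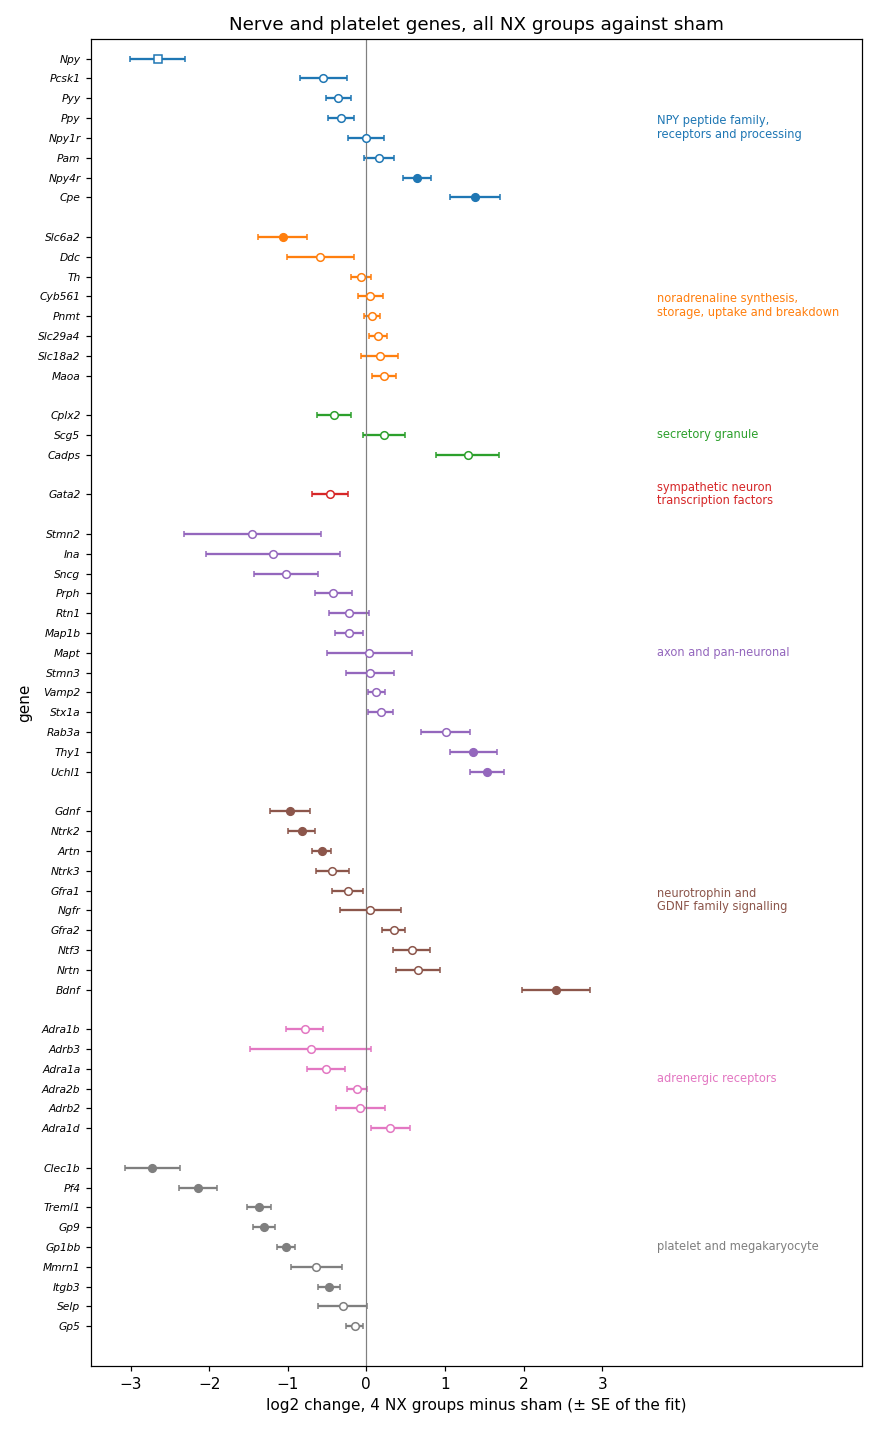
Log2 difference between the 4 NX groups and sham (x axis, ± SE of the fit) for measured genes (y axis) of the nerve lists and of the platelet list, grouped by list. Filled points passed the test at an adjusted p under 0.05; Npy (square) was not tested. Nerve genes lie on both sides of 0, 5 higher and 4 lower among those that passed, while all 9 platelet genes lie below 0 and 6 of them passed.

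The 5 features with the highest Pearson r with Npy over the 15 arrays were 4 genes of the platelet list and a transcript described as similar to a platelet integrin, on a measure that contains the gap between sham and NX by which Npy was chosen. By the rule used for naming, which ranks features with a gene symbol and a mean level above the lowest quartile, the 8 highest Pearson r with Npy over 15 arrays belonged to Pf4 (0.963), Nfil3 (0.866), Vmac (0.826), Gp1bb (0.823), Kcnk5 (0.821), Lrrc36 (0.818), Pdzd2 (0.813) and Tppp3 (0.808). Pf4 is the chemokine of platelet granules, Gp1bb part of the glycoprotein complex that binds von Willebrand factor on platelets, and Nfil3 a leucine zipper transcription factor. Without the limit on level, the 5 highest of all other features were Clec1b (0.987), ENSRNOT00000055179 (0.969), Treml1 (0.965), Pf4 and Gp9 (0.921). The authors' deposited table describes ENSRNOT00000055179 as a predicted transcript similar to the precursor of integrin alpha-IIb, the platelet integrin. These 4 further features were named after their values were seen, but Clec1b, Treml1 and Gp9 are on the platelet list. Of the 8 features named by the rule, 2 (Pf4 and Gp1bb) are on the platelet list. Clec1b, ENSRNOT00000055179, Pf4 and Gp9 are, like Npy, in the authors' table of features selected against sham. Such correlations are a description.

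Within the 12 NX arrays alone, r with Npy was 0.957 for Clec1b (Spearman rho 0.923), 0.899 for Pf4 (0.853), 0.885 for Treml1 (0.860) and 0.714 for Gp9 (0.566). Leaving out the 2 arrays with Npy farthest from the median, NX-vehicle arrays 1 and 3, gave 0.918, 0.792, 0.778 and 0.555. High values were not limited to platelet genes. Nfil3, which is not on the platelet list, had an r of 0.921 (rho 0.888) over the 12 NX arrays and 0.850 without those 2. It thus stood above Pf4, Treml1 and Gp9. For the other 5 measured platelet genes, r over the 12 NX arrays was lower, at 0.39 for Mmrn1, 0.33 for Gp1bb, 0.32 for Selp, 0.06 for Itgb3 and -0.44 for Gp5. For deviations from the group means over 15 arrays, r was 0.938 for Clec1b, the highest of all features, 0.892 for Nfil3, 0.823 for Pf4, 0.761 for Treml1 and 0.708 for Gp9, but 0.228 for Gp1bb. For the measured adipocyte genes, r of deviations ran from 0.276 (Retn) to 0.706 (Cox8b), the upper end near that of Gp9. By the naming rule the 8 highest were Nfil3, Pf4, Tuba8 (0.807), Reep6, Coro6, Or13p4, Slc2a6 and Car4 (0.775), of which the last 6 had an r of only 0.15 (Tuba8) to 0.45 (Slc2a6) with Npy over the 12 NX arrays. On NX-vehicle array 2 and NX-paricalcitol array 2, which stood low for Npy within their groups, Clec1b and Pf4 also stood lowest. Of the nerve genes, r over the 12 NX arrays was -0.10 for Th, -0.12 for Npy1r, 0.28 for Prph, 0.10 for Slc6a2 and -0.61 for Uchl1. The highest r over 15 arrays among the 51 nerve genes was 0.774, for Ntrk2.

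**Figure D3:**
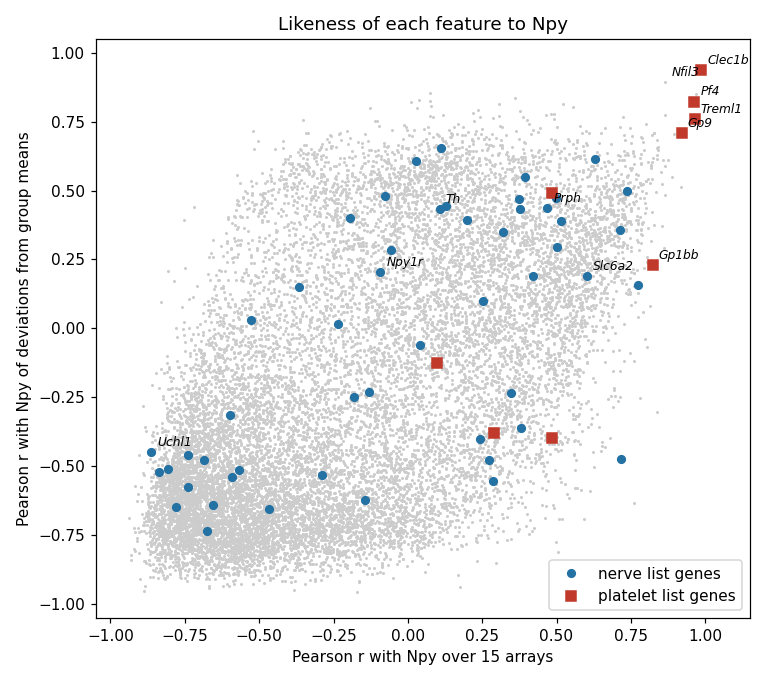
Pearson r of each feature with Npy over the 15 arrays (x axis) against the r of deviations from group means (y axis). Grey points are single features, circles are nerve list genes and squares are platelet list genes. Clec1b, Pf4, Treml1 and Gp9 sit at the top right. The other 5 platelet genes are spread (Gp1bb at 0.82 and 0.23, Mmrn1 at 0.48 and 0.49, Itgb3 at 0.48 and -0.40, Selp at 0.29 and -0.38, Gp5 at 0.10 and -0.13), as are the nerve genes.

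Of the platelet and megakaryocyte list, 9 of 18 genes had a row, and the 6 that passed all fell in NX rats (3.09% of all features fell). The authors' deposited table of 89 selected features already lists 3 of the 9, Clec1b, Pf4 and Gp9, as lower in every NX group, as it does Npy. The tests of these 3 genes against sham use the values that had selected them, so they are a description and no separate support. The median of the 9 differences was -1.02, against 0.06 over all features. Clec1b, the platelet receptor for podoplanin, was at 2.72, 2.95 and 2.56 on the sham arrays and at 1.10, -0.32 and 1.06 with vehicle. It was at 0.86, -0.63 and 0.56 with paricalcitol, at 0.11, -0.54 and -1.11 with alfacalcidol and at -0.34, -0.56 and 0.00 with VS-105. Every NX array lay more than 1 log2 unit below every sham array, and the difference was -2.72 (SE 0.35, limma adjusted p = 0.00416), close in size to that of Npy.

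Pf4 was at 6.04, 6.65 and 6.16 on the sham arrays, 5.40, 4.25 and 5.40 with vehicle, and 4.72, 3.95 and 4.52 with paricalcitol. It was at 3.05, 3.48 and 3.25 with alfacalcidol and 4.22, 3.63 and 3.83 with VS-105. As for Npy, the NX group with the lowest mean was alfacalcidol and the one with the highest was vehicle. Pf4 fell by 2.14 over all NX groups (SE 0.24, limma adjusted p = 0.00202). Treml1, a receptor stored in platelet granules, fell by 1.37 (SE 0.15, adjusted p = 0.00156), and Gp9 and Gp1bb, of one glycoprotein complex, fell by 1.30 (SE 0.14) and 1.02 (SE 0.11). Itgb3, the beta chain of the platelet integrin, fell by 0.48 (SE 0.14, adjusted p = 0.0475), a call lost without any one of the sham arrays. Selp (-0.30, adjusted p = 0.552), Mmrn1 (-0.64, 0.202), both of which endothelium also makes, and Gp5 (-0.15, 0.391) did not pass.

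For 5 of the 9 platelet genes all 12 NX arrays lay below all 3 sham arrays, whereas 0.851% of all features did so. Without the 3 arrays with intestinal or muscle transcripts, 5 of the 9 were called, with Clec1b at -2.60 and Pf4 at -2.09. With features below the lowest quartile of mean level left out of the table, 2 were called, since Clec1b, Treml1 and Gp9 are then not in the fit. Against NX-vehicle none of the 9 was called with any compound. The nearest were Pf4 with VS-105 (-1.12, limma adjusted p = 0.0600) and with alfacalcidol (-1.76, 0.0640). The platelet list was set with earlier results of these data known, and the fall of some of its genes was among them.

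**Figure D4:**
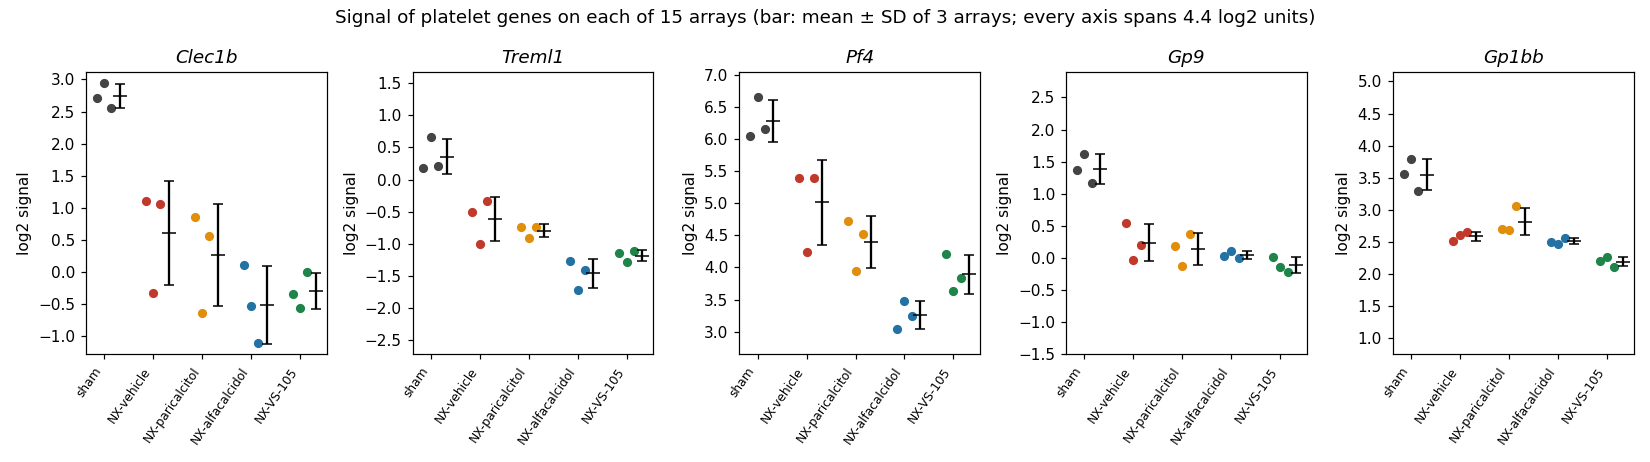
Log2 signal (y axis) of the platelet genes Clec1b, Treml1, Pf4, Gp9 and Gp1bb on each array, by group (x axis). Each point is 1 array, and bars are the mean ± SD of 3 arrays. For each of the 5 genes all 12 NX arrays lie below all 3 sham arrays.

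The levels of other blood and tissue lists moved along in part, and their part in the difference of Npy was not tested. The mean level of the 9 platelet genes was 1.94 to 2.07 on the sham arrays and 0.46 to 1.42 on the NX arrays. That of 7 measured erythroid genes was 4.09 to 4.48 on the sham arrays and 2.31 to 4.29 on the NX arrays, with alfacalcidol array 2 inside the sham range. Of these 7, Ahsp, which stabilises alpha globin, fell by 1.91 (SE 0.55, limma adjusted p = 0.0470) and the other 6 did not pass. Among those, Hbb was at -1.18 (adjusted p = 0.0801), Klf1 at -0.84 (0.0590) and Slc4a1 at -1.28 (0.0796). By group, Slc4a1, Ahsp and Klf1 fell in NX-VS-105 against sham, where 8.01% of all features fell. No erythroid gene was called against sham in the other NX groups. On alfacalcidol array 2, a single pool, Ahsp was at 3.12, inside its sham range of 2.77 to 3.36, and Npy was at 3.18. The erythroid mean had an r of 0.682 with Npy over the 15 arrays, a measure that contains the gap by which Npy was chosen. Of 4 measured T and B cell genes 2 fell and none rose (3.09% of all features fell). All 4 differences were below 0, with a median of -1.37. Their mean level was -0.86 to 0.59 on the sham arrays and -2.03 to -1.07 on the NX arrays. Among them, Cd5 fell by 2.43 (limma adjusted p = 0.0226), with 11 of its 15 values under the common floor. Over all NX groups, the calls of Ahsp and Cd5 were lost without sham array 2 and without the 3 arrays with foreign transcripts.

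None of 11 macrophage genes passed over all NX groups, all with differences above 0 and a median of 0.51, among them C1qc at 0.63 (limma adjusted p = 0.0539). By group, C1qc, a complement component (0.90, adjusted p = 0.0470), and the surface receptor Adgre1 (0.90, 0.0491) rose with paricalcitol. The lysosomal protein Cd68 (0.79, adjusted p = 0.0259) and the mannose receptor Mrc1 (1.16, 0.0498) rose with VS-105. None passed with vehicle or alfacalcidol, and the median of the 11 differences from sham was 0.69 with vehicle, 0.82 with paricalcitol, 0.71 with VS-105 and 0.00 with alfacalcidol. The calls of Cd68 and Mrc1 are not given without VS-105 array 1, which carried muscle transcripts. On that array the mean level of the 11 genes was 3.69, against 2.83 and 3.24 on VS-105 arrays 2 and 3. None of 12 white adipocyte genes passed. Their mean level was 4.53 to 5.70 on the sham arrays and 3.31 to 6.37 on the NX arrays. It varied within groups, at 6.21, 3.31 and 3.69 with vehicle and 5.85, 3.92 and 3.91 with paricalcitol. The mean of 10 brown adipocyte genes was 2.55 to 3.80 on the sham arrays and 1.38 to 3.92 on the NX arrays. Of 10 brown adipocyte genes Elovl3 fell, by 2.18 (SE 0.60, adjusted p = 0.0420), and of 4 adrenal cortex genes Cyp11b2 fell, by 1.84 (SE 0.53, adjusted p = 0.0467). Both calls were lost without the 3 arrays with foreign transcripts or without sham array 2. The mean of the adrenal cortex genes was 0.13 to 0.93 on sham arrays and -0.32 to 0.91 on NX arrays. None of the endothelial, smooth muscle, fibroblast, skeletal muscle or intestinal genes passed in this comparison.

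**Figure D5:**
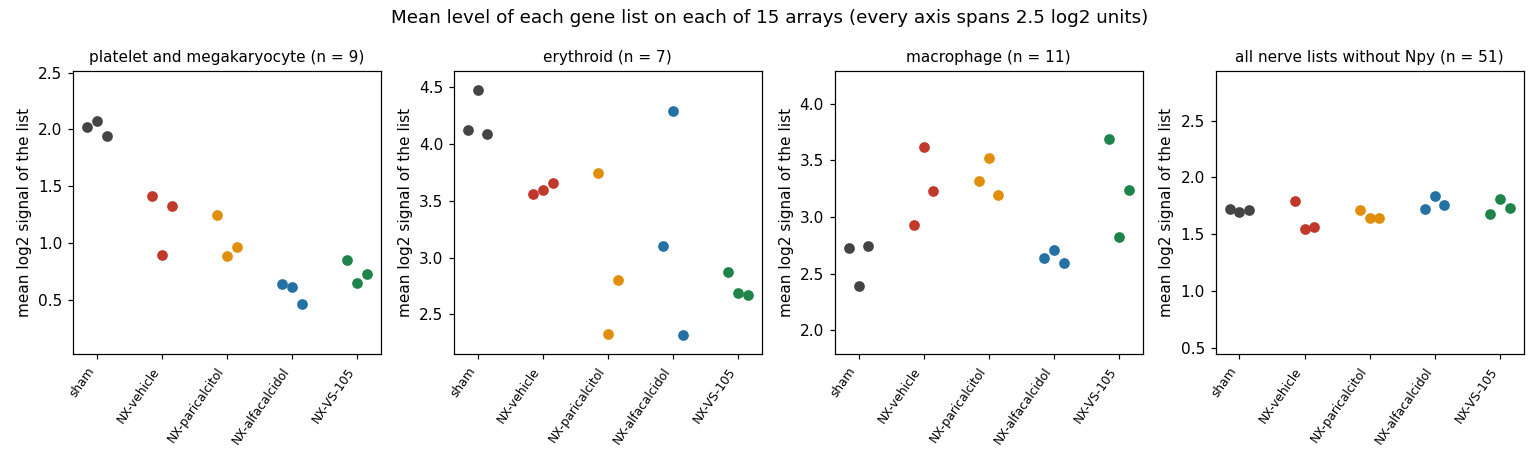
Mean log2 signal (y axis) of the platelet, erythroid, macrophage and nerve lists on each array, by group (x axis); each point is 1 array and every panel spans the same number of log2 units. The platelet mean is 1.94 to 2.07 in sham and 0.46 to 1.42 in NX groups, and the mean of the 51 nerve genes is 1.54 to 1.84 in NX groups against 1.70 to 1.73 in sham.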

How the data were processed

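Aortic RNA was measured on one-colour Agilent arrays (Cy3), 3 arrays in each of 5 groups, each a pool of 2 rats. Partek 6.0 is named in the submitters' processing notes. Background handling and scaling remain not given in the sources used here. Deposited were log2 values of 15739 features. The authors' deposited comparison table gives signed fold changes (ratios) and unadjusted p-values for 89 selected features, and fold changes alone were used from it.

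Feature names were matched to RefSeq (9187 by symbol, 1555 by synonym, 23 to several genes, 4974 to none). Value columns were assigned to groups from the labels. With limma 3.58.1 in R 4.3.3, a mean per group was fitted over all 15 arrays (10 residual degrees of freedom). Tests were two-sided, with Benjamini-Hochberg adjustment over all features within each of 8 comparisons and a threshold of 0.05. The comparison of all NX groups is the mean of their 4 group means minus sham. p-values measure the spread between pools, and precision is limited by 3 arrays per group. The fit was checked on simulated data.

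Members, lists, tests and alternatives were chosen with earlier results of these data known. Named from each list were up to 3 members past the threshold per comparison, or the 2 with the smallest p, and the 8 features most like Npy by r over arrays and the 8 by r of deviations from group means, among features above the lowest quartile of mean level. Other members are given to complete a list, and some genes of the lists are counted but not reported here by name. Alternatives covered scaling, a common floor, a filter on low levels, moderation of the spread, array weights, the groups in the fit, a replicate block and leaving out arrays. Whether shared replicate numbers pair the samples was checked through the correlation of deviations from group means, which ranged from -0.447 to 0.622 over 30 same-numbered pairs (median -0.03). All 3 pairs exceeded 0.1 between NX-vehicle and NX-paricalcitol (0.622, 0.516 and 0.264). The main fit did not pair these samples, and their numbers were used as pairs only in an alternative chosen after seeing the data. In the other 9 pairs of groups at least 1 correlation did not exceed 0.1. The labels do not say what a number marks.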

Additional observations from a re-analysis of the deposited data

How the results depend on the processing

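Counts of nerve genes past the threshold depended on the processing. Array weights raised them to 10 in NX-vehicle, 17 in NX-paricalcitol and 14 in NX-alfacalcidol against sham. Against NX-vehicle they raised them to 22 (paricalcitol), 28 (alfacalcidol) and 22 (VS-105). The shares of all features called with weights in these comparisons are not given here, so these counts are no result about nerve genes in particular. Array weights also turned Th to 0.012 over all NX groups. With no moderation the count was 3 for NX-paricalcitol and 3 for NX-alfacalcidol against sham. Fitting only the groups compared gave 3 for NX-paricalcitol and 3 for NX-VS-105. Leaving out features below the lowest quartile of mean level gave 3 for NX-alfacalcidol, 5 for NX-VS-105 and 2 for platelet genes over all NX groups. For VS-105 against NX-vehicle the count became 2 with array medians subtracted or quantile normalization (also 2 for alfacalcidol), and 0 with low features left out, trend and robust moderation, no moderation or only the groups compared.

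The replicate block gave 3 (paricalcitol), 3 (alfacalcidol), 6 (VS-105) and 6 (all NX) nerve genes against sham, 0 for VS-105 against NX-vehicle and 5 platelet genes. Outside paricalcitol against NX-vehicle the samples share only a number. With the replicate block in those 2 groups alone, an alternative chosen after seeing the data, the paired difference of Npy kept an adjusted p above the threshold (0.0908), and limma called 0 nerve genes and 0 features, as without it (4923 features had an unadjusted p under 0.05, against 2325 without it). Leaving out 1 array at a time gave 0 to 10 (paricalcitol), 0 to 7 (alfacalcidol), 3 to 11 (VS-105) and 0 to 12 (all NX) against sham, 0 to 1 (alfacalcidol) and 0 to 5 (VS-105) against NX-vehicle, and 5 to 6 platelet genes. It moved Npy in paricalcitol against NX-vehicle between -0.91 and 0.079, and Th over all NX groups between -0.18 and 0.017. An alternative chosen after seeing the data, without the 3 arrays with intestinal or muscle transcripts, gave 3 for NX-VS-105 and 2 for all NX groups against sham, and 0 for VS-105 against NX-vehicle. The causes were not tested.

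Over the whole table, 1544 features passed in all NX groups against sham, 215 without those 3 arrays, 732 with the replicate block, 914 with no moderation, 2508 with array weights, 396 without sham array 1 and 32 without sham array 2. Fitting only the groups compared was not run for all NX groups, where it is the fit itself. Npy stayed lower than sham in every NX group under every alternative run (-3.57 to -1.37). Clec1b, Pf4, Treml1, Gp9 and Gp1bb kept their calls over all NX groups in every alternative that held them. Of 15 values, 11 for Cd5, 6 for Stmn2 and 4 for Bdnf lay under the common floor.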
